A study of Mus musculus with 157 samples.

Results

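The mRNAs that encode the proteins of the cytosolic ribosome were followed across polyribosome gradients of mouse splenic B cells. Members were the protein-coding rows named Rpl or Rps with a number, together with Rplp0, Rplp1, Rplp2 and Rpsa. Kinases of the Rps6k family, Rps19bp1 and rows named as pseudogenes were left out. This gave 79 of 19600 rows, of which 33 belonged to the small (40S) subunit and 46 to the large (60S) subunit. They held 9872383 of 156884501 deposited counts (6.29%).

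B cells of C57BL/6Babr mice were activated in culture for 48 h with LPS (10 μg/ml), a bacterial lipopolysaccharide that drives B cells into growth and division. One group received nothing further (LPS). A further group received etoposide, a topoisomerase II poison that breaks DNA, at 20 μM for 4 h (LPS+ET). The last group received the ATM kinase inhibitor KU55933 (10 μM) 1 h before etoposide, after 47 h of LPS (LPS+ET+KU). All cells were exposed to cycloheximide (100 μg/ml) for 3 min before lysis, which holds ribosomes on mRNA. For each treatment 4 gradients were cut into fractions, and 13 of them (fractions 4 to 16) were sequenced from the 3′ end, giving 156 libraries. Fractions 4 to 7 are monosomes, 8 to 10 light polysomes and 11 to 16 heavy polysomes. Gradients carry the number that follows the letters LUL in their column names (15 to 18), here called the pool. The column names do not say what it stands for.

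A ribosome is built from equal numbers of most of its proteins, and growing cells spend much of their protein synthesis on them. The mRNAs of these genes begin with a 5′ terminal oligopyrimidine (TOP) tract, a cytosine followed by further C or T letters, through which the kinase mTOR and the binding protein Larp1 are known to set how much of each mRNA is translated. A TOP mRNA is known to be found either in polysomes or in lighter complexes with few or no ribosomes. In a sucrose gradient an mRNA sediments further the more ribosomes it carries, and short coding sequences hold fewer of them.

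The start of the mRNA is the feature that these genes are known to share, and it is shown for genes that recur below, with and without the tract in the annotated start. The sequences are the first 20 bases of a GENCODE M21 coding transcript (GRCm38), 5′ to 3′, with the first tract of a C followed by 4 or more C or T letters in capitals where it lay at the first base or in the next 10. Where any coding transcript of a gene had the tract, one that had it was chosen for display. Rpl32 (chr6:115808728-115808747, minus strand), Rpl4 (chr9:64173375-64173394, plus strand), Rps3 (chr7:99483632-99483651, minus strand) and Rps15a (chr7:118115658-118115677, minus strand) have it at the first base.
Rpl32: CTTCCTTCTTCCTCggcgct
Rpl4: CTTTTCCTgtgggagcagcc
Rps3: CCTTTCCTTTCagcggcgcg
Rps15a: CTCCCgaaagggggtgtgtg
Rpl22 (chr4:152325853-152325872, plus strand) and Rps27l (chr9:66946086-66946105, plus strand) have 1 base before it. Rpl7l1 (chr17:46782637-46782656, minus strand), Rps20 (chr4:3835646-3835665, minus strand) and Rpl3 (chr15:80083387-80083406, minus strand) have none in this window.
Rpl22: gCCCCCCTCCCTTTCTgcct
Rps27l: gCCTCTatcccggaagttgc
Rpl7l1: cgcagtagctgaagcaccgg
Rps20: gttccgggtcacaaagcacc
Rpl3: agggggcggagccatcactt
None was found either for Rpl6, Rps6, Rps12, Rpl39, Rplp0 and Rpl11, which also recur below. At the first base these letters were found in 21 of 77 matched members (27.3%), against 897 of 16056 protein-coding genes (5.59%). At the first base or the next 10 they were found in 45 of 77 (58.4%), against 35.4% of genes. With RefSeq starts of the same build and 60 matched members, 12 (20.0%) had the letters at the start base, against 813 of 27025 genes with such starts (3.01%). In all these counts a gene was included if any of its coding transcripts or starts had the letters. The search covered the transcribed strand only, and annotated starts can lie some bases from the true ones.

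Libraries held 14724 to 4170688 counts (median 811932), and gradients 6404957 to 21449781. In 12 libraries there were fewer than 100000 counts, among them fraction 4 of LPS pools 15, 17 and 18 (42937, 17629 and 14724) and of LPS+ET pools 17 and 18 (32104 and 74715). Heavy fractions 11, 12, 15 and 16 of LPS+ET pool 16 were also among them (54686, 33476, 80915 and 63879). The same amount of RNA went into each fraction, so a library total says nothing of how much mRNA the fraction held. All 8 B cell markers were present (summed CPM 31236 to 133225 per gradient, CPM being the count scaled to a library total of 1000000). This sum includes the immunoglobulin genes Ighm and Igkc, and the B cell marker Cd79a alone stood at 43.1 to 91.8 CPM. T cell markers summed to at most 2.58 CPM, myeloid ones to 25.2 to 156 CPM, and the 1 NK cell marker in the table to at most 2.61 CPM. Cdkn1a, Mdm2, Ccng1 and Bax, which DNA damage is known to induce, summed to 335 to 425 CPM in LPS, 1888 to 2630 in LPS+ET and 1071 to 2005 in LPS+ET+KU. Fewer cells of a type and less RNA per cell cannot be told apart in bulk fractions.

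The counts of the members were very uneven. Rps20, a protein of the head of the 40S subunit, held 3666438 counts or 37.1% of those of all members. Rpl4 held 9.44%, Rplp1 7.96% and Rps3 6.32%. Other highly counted members were Rpl8 (431018 counts), Rps26 (339018), Rpl32 (332638), Rpl14 (324839) and Rps19 (233719). At the other end, Rps2 had 260 counts, Rps4x 362, Rps27 790, Rpl38 701 and Rpl13 only 5 over all 12 gradients. Since 1 tag stands for 1 mRNA end, no length scaling applies, but a count here depends on which poly(A) site was assigned to the gene. The counted site lay within 100 bases of an annotated transcript end in 72 of 79 members.

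Near-identical copies bear on these levels. The table holds 73 rows named as ribosomal protein pseudogenes with 4294870 counts, which is 43.5% of the members' own. Of 35 members with such a row, 15 had fewer counts than their pseudogenes. Rps18 had 312 against 1559028, Rpl31 43373 against 969701, Rpl10 188 against 471761 and Rps25 5306 against 353220. The level of these genes is therefore uncertain, and a low count is not a low expression. The 27 pseudogene rows with a position had a median position of 7.31 ± 0.07 in LPS (SD, n = 4 gradients; position is defined below).

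Both rows with the highest positions carry an identifier that GENCODE M21 gives to another symbol. The row named Rpl24 (ENSMUSG00000022601) is Zbtb11, a zinc finger gene, at chr16:55966274-56008912, and its counted site at 56008910 lies in an untranslated exon 3 bases from an annotated end. The row named Rps4y2 (ENSMUSG00000063171, chr6:148354655-148355597) is Rps4l, a copy of Rps4x. They were kept, as the rule is by name, and the values that rest on them are given as those of these rows.

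Ribosomal protein mRNAs filled a large share of the lightest fractions and very little of the heavy ones. In LPS their summed share of the tags was 15.3% ± 6.46 in fraction 4, 24% ± 3.49 in fraction 5, 14.7% ± 2.10 in fraction 6 and 10.4% ± 0.949 in fraction 7 (SD, n = 4 here and below). It went down through the light polysomes from 8.59% ± 0.865 in fraction 8 to 4.90% ± 0.665 in fraction 10. It reached 1.83% ± 0.417 in fraction 14, and was 2.64% ± 0.597 in fraction 16. In LPS+ET the share was 19.5% ± 4.30 in fraction 4, 24.5% ± 1.08 in fraction 5, 7.84% ± 0.880 in fraction 8 and 1.42% ± 0.306 in fraction 13. With the inhibitor (LPS+ET+KU) it was 19.1% ± 2.16, 24.4% ± 1.80, 5.57% ± 1.27 and 1.68% ± 0.236 in those fractions.

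The share peaked at fraction 5 in 11 of 12 gradients, at 22.7 to 26.9%. The exception was LPS pool 16, which peaked at fraction 4 (23.8%). Pools 17 and 18 of LPS+ET+KU rose from fraction 8 to 9, from 5.56 to 9.14% and from 4.12 to 7.05%, while pools 15 and 16 went down. LPS+ET pool 16 rose at fraction 11, a library of only 54686 counts. In fraction 5 Rps20 alone made up 10.4% ± 2.24 of the tags of LPS, 11.9% ± 1.30 of LPS+ET and 11.0% ± 2.12 of LPS+ET+KU, and it was 0.501% ± 0.0943 of fraction 13 in LPS.

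**Figure D1:**
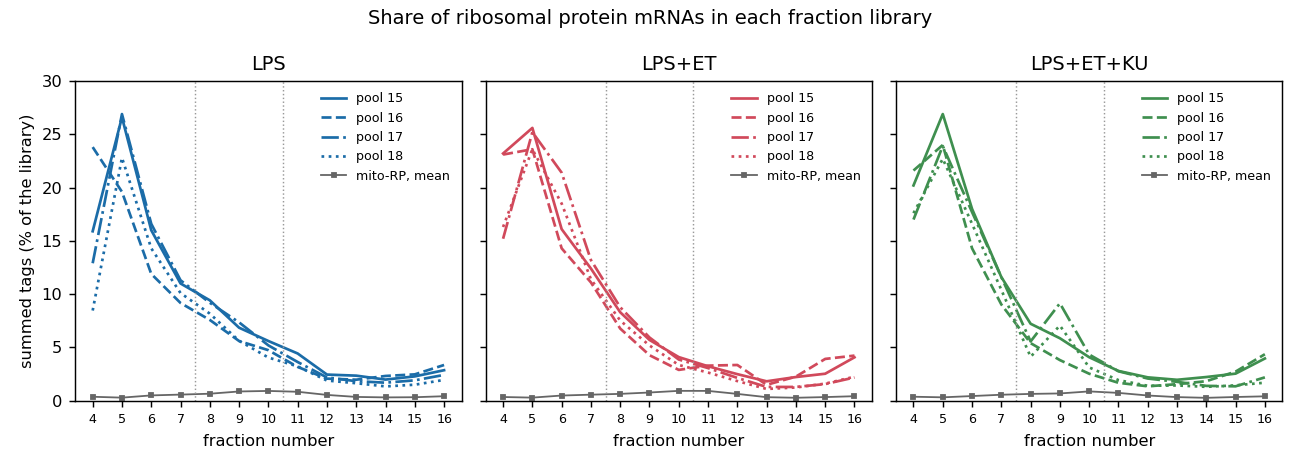
Summed share of the 79 ribosomal protein genes in each fraction library (y axis, % of the library's tags; x axis, fraction number), 1 line per gradient, with the mean share of the mitochondrial ribosomal protein genes in grey; dotted lines part monosomes, light and heavy polysomes. The share peaks at 22.7 to 26.9% in fraction 5 in 11 of 12 gradients and falls to a few percent in the heavy polysomes, whereas the grey line stays below 1%.

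A profile of each gene was made from its CPM in the 13 fractions, and its position is the mean fraction number weighted by CPM. A position was computed where a gene averaged at least 100 counts in a gradient, which left 7999 genes and 58 of the 79 members. Over these 58, the median share of a gene's CPM was 64.1% ± 0.490 in monosomes, 18.8% ± 0.542 in light and 16.4% ± 1.15 in heavy polysomes in LPS. Over all 7999 genes these medians were 19.5% ± 1.42, 21.3% ± 0.430 and 55.3% ± 0.913. In LPS+ET the members' medians were 65.5% ± 1.38, 17.1% ± 2.37 and 15.9% ± 3.21, and in LPS+ET+KU 67.0% ± 3.61, 17.3% ± 3.12 and 15.1% ± 2.32. The mean profile peaked at fraction 5 for 40 of 58 members in LPS, for 32 in LPS+ET and for 34 in LPS+ET+KU.

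The median position of the members was 7.41 ± 0.11 in LPS, with 7.49, 7.26, 7.41 and 7.47 in pools 15 to 18. It was 7.36 ± 0.17 after etoposide and 7.25 ± 0.20 in LPS+ET+KU, against 10.74, 10.63 and 10.72 over all genes. In LPS 44 of 58 members (75.9%) lay below 8, as did 3.24% of all genes. Among the 100 rows with the lowest position in LPS were 18 members (the 58 members are 0.725% of the rows ranked). These rows also held 25 with a Gm name, 10 ribosomal protein pseudogenes and 2 other TOP mRNAs. Among the lowest 50 were 6 members and 13 rows with a Gm name. Small subunit members had medians of 7.14, 7.22 and 7.17 in the 3 treatments and large subunit members 7.63, 7.43 and 7.31.

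**Figure D2:**
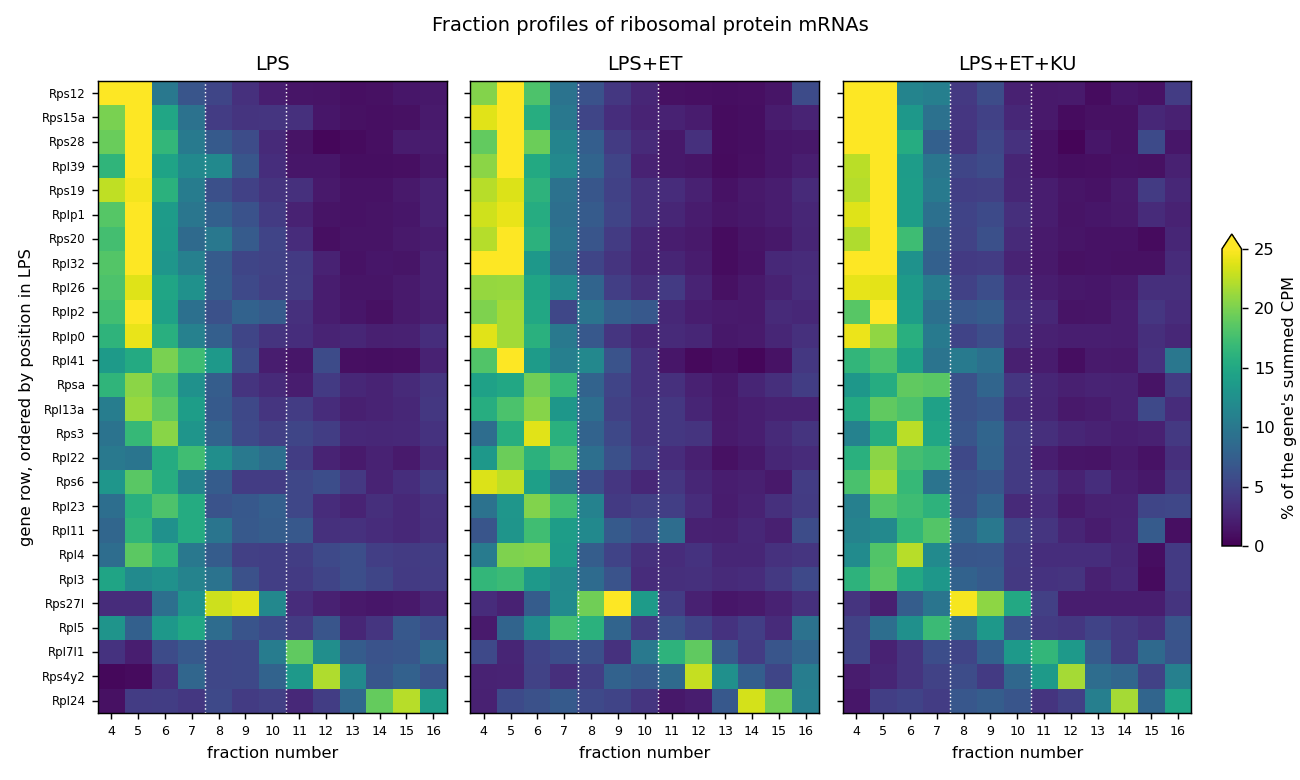
Fraction profiles of 26 of the 58 members with a position (rows; those with a known role, at the ends of the range or called, ordered by position in LPS) in each treatment; colour gives the mean percent of the gene's summed CPM that lies in a fraction (x axis), and the scale ends at 25%. Most rows are brightest at fractions 4 to 6 in all 3 panels, and the lowest rows (Rps27l, Rpl5, Rpl7l1, Rps4y2 and the row named Rpl24) peak at fraction 7 or later.

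The 3 lowest positions in LPS were those of small subunit genes. Rps12, whose protein sits at the beak of the 40S subunit, stood at 6.37, 6.48, 5.58 and 5.71 (mean 6.03 ± 0.46). Rps15a followed at 6.43 ± 0.20 and Rps28 at 6.44 ± 0.27. These neighbours differ by less than their SDs, and Rps12 and Rps28 rest on a mean of only 137 and 245 counts per gradient. Fraction 4 of LPS pools 17 and 18 held only 17629 and 14724 counts, so a single tag there weighs heavily in such a position. In LPS Rps12 averaged 9.59 CPM from summed counts but 18.4 CPM with each fraction weighted equally. Rpl39, which encodes one of the smallest proteins of the ribosome (51 residues), stood at 6.65 ± 0.16, Rps19, mutated in Diamond-Blackfan anaemia, at 6.69 ± 0.19, and Rplp1 of the ribosomal stalk at 6.72 ± 0.10. The other stalk genes, Rplp2 and Rplp0, stood at 7.01 ± 0.19 and 7.22 ± 0.20.

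Other members with known roles lay further along. Rpsa, which also has a laminin receptor form, stood at 7.38 ± 0.26, Rpl13a, which is also known in control of inflammatory mRNAs, at 7.59 ± 0.03, Rps3, with a further role in DNA repair, at 7.87 ± 0.08, and Rpl23 at 7.98 ± 0.32. Rpl5 and Rpl11, which join the 5S rRNA and can bind Mdm2, stood at 9.07 ± 1.02 and 8.24 ± 0.54. The spread of Rpl5 was wide: its 4 LPS gradients ran from 7.64 to 10.04 with a mean of 118 counts per gradient. Rpl26 stood at 6.98 ± 0.09 and Rpl41, whose protein is 25 residues long, at 7.28 ± 0.52 with 102 counts per gradient.

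A few rows stood apart at the far end. The row named Rpl24 had a position of 12.34 ± 0.33 in LPS and the row named Rps4y2 one of 11.36 ± 0.28. Rpl7l1, a paralogue of Rpl7, stood at 10.76, 10.68, 10.62 and 11.43 in LPS, with 60.7% ± 6.69 of its CPM in heavy polysomes and its peak at fraction 11 (18.5% ± 2.31). Its coding length is 246 residues, and genes of 201 to 300 residues in no list had a median of 10.41. Rps27l, a paralogue of Rps27 known to be induced by DNA damage, stood at 8.72, 8.26, 8.56 and 9.02, and held 58.6% ± 7.61 of its CPM in light polysomes, with 23.1% ± 1.30 in fraction 8 and 23.9% ± 4.26 in fraction 9. Its peak lay at fraction 8 or 9 in all 3 treatments.

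Coding length was set beside position. Of members with 101 to 150 residues the median position in LPS was 7.04 (n = 23), against 9.73 for the 358 genes of that length in no list and 9.55 for 18 mitochondrial ribosomal protein genes. With 151 to 200 residues it was 7.74 (n = 10) against 10.15, and with 201 to 300 residues 7.84 (n = 13) against 10.41. Rplp0, Rpl3 and Rpl4, the 3 members of 301 to 450 residues, had a median of 8.29 against 10.69. The other TOP mRNAs, of which few have these lengths, had medians of 7.25 (n = 1), 6.51 (n = 1), 9.12 (n = 4) and 8.30 (n = 6) in the same 4 classes. Across 56 members, log2 coding length and position in LPS had a Pearson's r of 0.44 and a Spearman's rho of 0.51. Without the paralogue-like genes these were 0.58 and 0.63 (n = 53), and across 68 mitochondrial ribosomal protein genes 0.73 and 0.74. Genes are not independent replicates, and all points share the same libraries. The 13 members with TOP letters at the first annotated base had a median position of 7.17 in LPS and the 43 without 7.50.

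**Figure D3:**
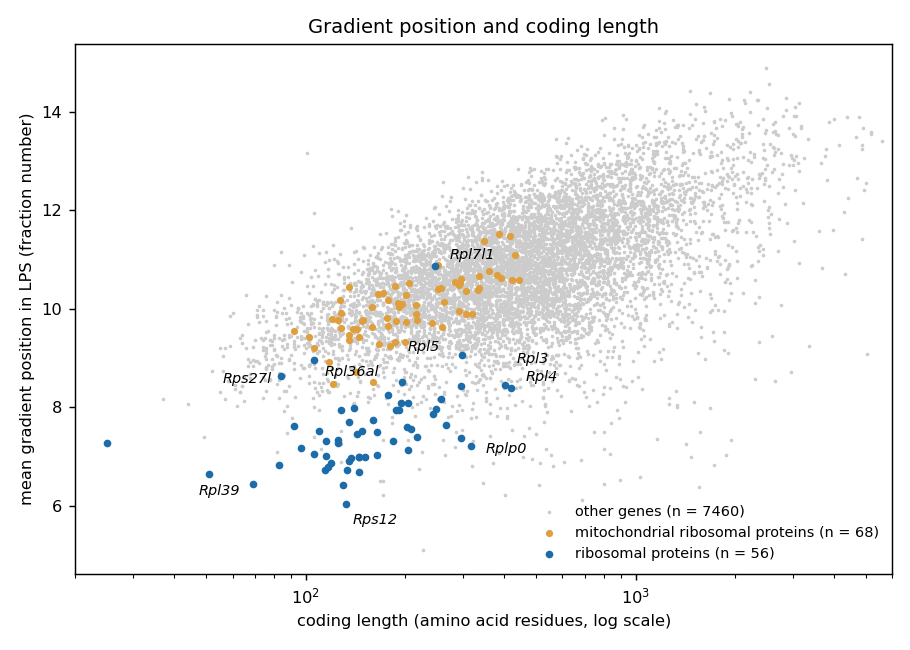
Mean position in LPS (y axis, fraction number) against coding length (x axis, amino acid residues, log scale) for 56 ribosomal protein genes (blue), 68 mitochondrial ribosomal protein genes (orange) and other genes (grey). Most blue points lie at or below the lower edge of the grey cloud at equal length, with Rpl7l1 inside it.

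To test the distribution within each treatment, counts were summed per class and gradient and fitted with edgeR's quasi-likelihood test, with the gradient as a term. Calls are at an adjusted p (Benjamini-Hochberg over all genes tested) under 0.01, and 72 members were tested. From monosomes to light polysomes, 64 of 72 members were lower in LPS, where 11.7% of all 11034 genes tested were lower, 62 in LPS+ET (11.3% of all genes) and 67 in LPS+ET+KU (13.8%). The median log2 ratio of the members was −1.74, −2.16 and −2.21, against −0.01, 0.01 and 0.01 over all genes. From light to heavy polysomes 58 members were lower in LPS (23.8% of all genes), 62 after etoposide (26%) and 63 in LPS+ET+KU (23.6%), with medians of −1.25, −1.47 and −1.35. Giving each fraction equal weight moved the median of all genes in the light to monosome ratio to 0.44, 0.50 and 0.56, and the members' medians relative to it stayed below 0.

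Few members went the other way. Rps27l was the only member called higher in light polysomes than in monosomes, by a log2 ratio of 0.73 ± 0.18 in LPS (SE, adjusted p = 0.00146, edgeR), 1.33 ± 0.18 after etoposide and 0.97 ± 0.18 in LPS+ET+KU. It was at the same time far lower in heavy than in light polysomes (−3.25 ± 0.19 in LPS). Rpl7l1 was higher in heavy than in light polysomes in LPS (0.63 ± 0.18, adjusted p = 0.00240) and LPS+ET (1.07 ± 0.18, adjusted p = 4.1e-06). Its ratio was 0.40 ± 0.18 in LPS+ET+KU (adjusted p = 0.0530). The row named Rps4y2 was higher in all 3 treatments (0.85, 1.08 and 1.08) and the row named Rpl24 in LPS (0.72 ± 0.22, adjusted p = 0.00405).

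**Figure D4:**
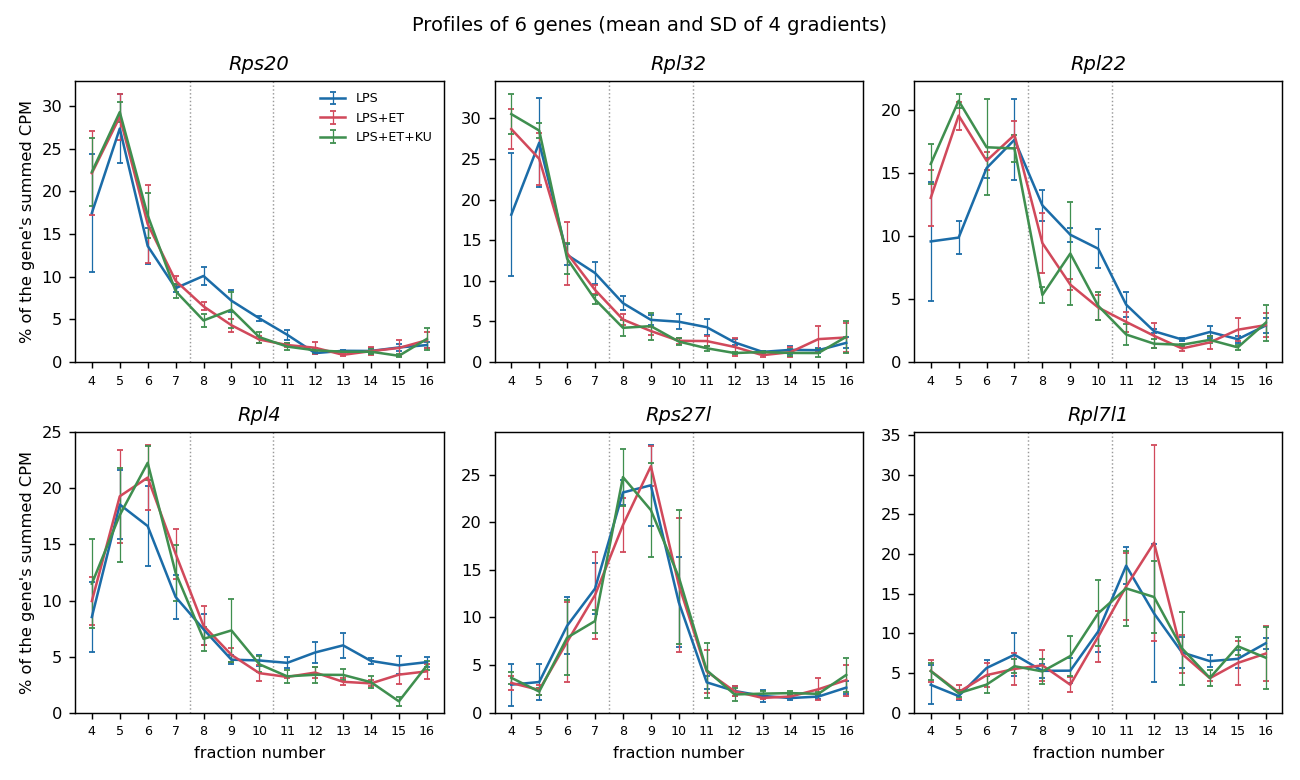
Profiles of Rps20, Rpl32, Rpl22, Rpl4, Rps27l and Rpl7l1 (y axis, % of the gene's summed CPM; x axis, fraction number) as mean and SD of 4 gradients per treatment; dotted lines part monosomes, light and heavy polysomes. Rps20, Rpl32, Rpl22 and Rpl4 lie mostly in fractions 4 to 7, Rps27l peaks at fractions 8 and 9, and Rpl7l1 at 11 or 12.

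The effect of etoposide on the distribution was asked first through the light to monosome ratio. The authors report that etoposide lowered polysome assembly globally. Counts were scaled to library or class totals, so a shift shared by all mRNAs drops out. Changes given here and below are relative to the other mRNAs. The ratio of Rps20, Rpl22 and Rpl32 fell in LPS+ET against LPS, and these were the 3 members called of 72, all lower. Of all genes 1.01% were called. For Rps20 the log2 ratio of CPM in the summed classes was −0.97, −1.15, −1.05 and −0.95 in LPS and −2.14, −2.15, −2.15 and −1.99 in LPS+ET. The 4 gradients of each treatment lay close together and the groups did not overlap. The 3 genes are shown because the test called them on these same values, so the lack of overlap adds no support. The change was −1.21 ± 0.19 (SE, adjusted p = 2.8e-04, edgeR), and the light polysome share of Rps20 went from 22.4% ± 1.83 to 13.5% ± 1.42.

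Rpl22, a large subunit protein that cells can do without and that is known for a role in lymphocyte development, had log2 ratios of −0.36, −0.59, −0.44 and −0.43 in LPS and −1.41, −1.56, −1.23 and −1.10 in LPS+ET. Again no gradient of one group reached the other. The change was −0.99 ± 0.20 (adjusted p = 0.00231, edgeR). Rpl32 stood at −1.32, −1.38, −1.45 and −1.49 in LPS and at −2.13, −2.21, −2.24 and −2.13 in LPS+ET, a change of −0.89 ± 0.20 (adjusted p = 0.00908, edgeR). The median change over the 72 members was −0.37 against 0.05 over all genes. Of the 72, 58 had a change below 0, and 26 an unadjusted p under 0.05, as had 1773 of all 11034 genes.

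The count of calls depended on how fractions were weighed and on single gradients. With equal weight for each fraction no member was called (Rps20 −0.93, adjusted p = 0.0629), and without LPS pool 15, LPS+ET pool 15 or LPS+ET pool 17 only Rps20 was. Over the 12 fits with 1 gradient left out, Rps20 was called in 12, Rpl22 in 9 and Rpl32 in only 3. With the pool as a block there were 6 calls, Rpl39 (−0.85), Rps25 (−0.92) and Rpl6 (−0.82) besides the 3 above.

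For the heavy to light ratio neither edgeR nor DESeq2 called a member in LPS+ET against LPS, where 0.825% of all genes were called, and 7 members and 1528 of 11034 genes had an unadjusted p under 0.05. Between LPS+ET+KU and LPS+ET no member was called either (0.218% of all genes; 4 members and 1167 genes with an unadjusted p under 0.05). DESeq2 called 1 there, and so did a fit blocked by pool, namely Rps15, which lies in the decoding region of the 40S subunit (−0.76 ± 0.17, blocked adjusted p = 0.00490; without the block 0.0346). The light to monosome ratio between these treatments gave no call with edgeR (0.0725% of all genes; 11 members and 1022 genes with an unadjusted p under 0.05) and 1 with DESeq2, again Rps15 (0.69).

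Position gave a second reading of the same gradients, with limma on all 7999 genes. In LPS+ET against LPS no member of 58 was called (1.03% of all genes), 7 had an unadjusted p under 0.05, as had 1502 of 7999 genes, and the median change was −0.07 for members and for all genes alike. Rpl4, whose protein lines the exit tunnel, stood at 8.59, 8.30, 8.47 and 8.19 in LPS and at 7.83, 7.48, 7.62 and 7.67 in LPS+ET. The groups did not overlap. The change was −0.74 ± 0.17 fractions (adjusted p = 0.0227, limma). Rpl22 stood at 8.00, 7.78, 8.04 and 7.94 in LPS and at 7.30, 7.46, 7.18 and 7.18 in LPS+ET, a change of −0.66 ± 0.14 (adjusted p = 0.0148). With the pool as a block both were called (adjusted p = 0.00443 for Rpl4 and 0.00678 for Rpl22). Leaving out LPS+ET+KU pool 16, which enters only through the shared estimate of the spread, also gave 1 call, Rpl4 (adjusted p = 0.00714).

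With the inhibitor, LPS+ET+KU against LPS, limma called 1 member of 58 (1.74% of all genes), and 14 had an unadjusted p under 0.05, as had 1572 of 7999 genes. This was Rpl22, at 7.16, 6.91, 7.27 and 6.84 in LPS+ET+KU, a change of −0.90 ± 0.14 (adjusted p = 0.00134). The scaling of the fractions moved this count, to 5 with TMM factors between fractions and to 12 with counts as deposited (Rpl22 −1.20 and −1.79), where the median over all genes was −0.28 and −0.81. Rpl3, a protein of the peptidyl transferase centre, had a change of −0.99 ± 0.21 (adjusted p = 0.0107), Rpl4 of −0.82 ± 0.17 (0.0103) and Rpl6 of −1.0 ± 0.24 (0.0189). With the pool as a block all 4 were called (adjusted p from 6.0e-04 to 0.00965). Without LPS+ET pool 16 the calls were 3 (Rpl22, Rpl3 and Rpl4), without LPS+ET pool 17 there were 2 (Rpl22 and Rpl3) and without LPS+ET+KU pool 17 also 2 (Rpl22 and Rpl4). Without fraction 4, where the libraries are shallowest, Rpl3 was called (−1.08) and Rpl22 missed the threshold at 0.0106. The median change over members was −0.19 against −0.02 over all genes. Between LPS+ET+KU and LPS+ET limma called no gene at all (0%), 662 genes had an unadjusted p under 0.05, and none of them was a member.

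All 4 positions in LPS+ET lay below all 4 in LPS in 10 of 58 members, against 7.90% of all genes. Among them were Rpl22, Rpl3, Rpl4, Rpl6, Rps20 and Rps6. All 4 lay above in Rps14 and Rps15 (2 members; 3.31% of all genes). For LPS+ET+KU 10 members lay wholly below LPS (8.16% of all genes) and 1 wholly above, Rps15 (5.04%). Both comparisons share the LPS gradients. Rps6, the substrate of S6 kinase, stood at 7.91, 7.86, 8.35 and 7.72 in LPS, at 7.58, 6.90, 6.65 and 6.80 in LPS+ET and at 7.47, 7.03, 7.35 and 7.31 in LPS+ET+KU. Its change in LPS+ET was −0.97 ± 0.27 (adjusted p = 0.0468, limma). Rps15 showed the opposite order, with 7.04, 7.01, 6.88 and 7.04 in LPS against 7.30, 7.18, 7.25 and 7.29 in LPS+ET (0.26 ± 0.13, adjusted p = 0.304).

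**Figure D5:**
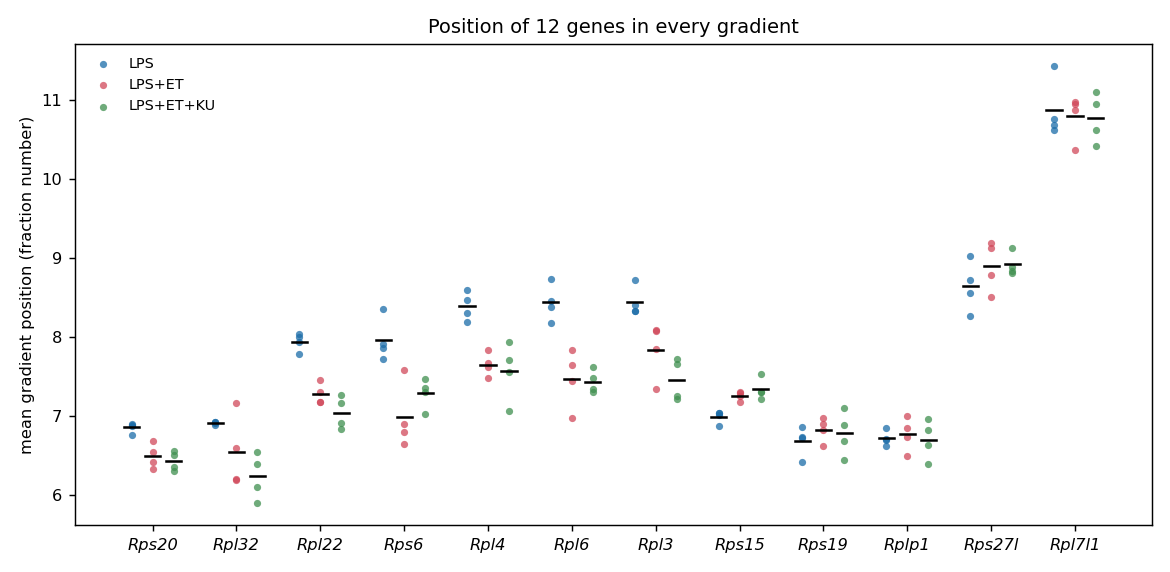
Position (y axis, fraction number) of 12 ribosomal protein genes in each of the 12 gradients; points are gradients, coloured by treatment, and black bars are means of 4. Rps20, Rpl22, Rps6, Rpl4, Rpl6 and Rpl3 lie lower in LPS+ET than in LPS without overlap, Rps15 lies higher, and Rpl32, Rps19, Rplp1, Rps27l and Rpl7l1 overlap.

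Apart from Rpl22, no member passed the test in a comparison of position. Rps19, with 19477 counts per gradient, stood at 6.69 ± 0.19 in LPS, 6.83 ± 0.15 with etoposide and 6.78 ± 0.28 in LPS+ET+KU. Rplp1 stood at 6.72 ± 0.10, 6.77 ± 0.22 and 6.70 ± 0.25. Rpl26, whose protein is also known to bind mRNA after DNA damage, stood at 6.98 ± 0.09, 7.04 ± 0.29 and 6.90 ± 0.32. In simulated data for LPS+ET against LPS, genes drawn from the well-counted rows of the table were raised 2-fold in heavy polysomes only. Of these, 12 of 100 were called by position. In LPS members held a median of 16.4% of their CPM there, against 55.3% over all genes. The simulation therefore does not give the power for members.

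Summed level (ribosome association, counts summed over fractions 4 to 16, edgeR) was called for 1 member of 74 in LPS+ET against LPS, where 12.7% of all genes were. This was Rps27l, at 246, 202, 250 and 164 CPM in LPS and 489, 658, 503 and 431 CPM in LPS+ET. The log2 change was 1.17 ± 0.19 (adjusted p = 6.9e-04, edgeR). Every LPS+ET gradient lay above every LPS gradient, in a gene picked by the test on these same values. With the inhibitor it stood at 384, 253, 296 and 283 CPM, a log2 change of −0.79 ± 0.19 against LPS+ET (adjusted p = 0.0472; with the pool as a block 0.00747, and called by DESeq2 as well). No member was called between LPS+ET+KU and LPS+ET (0.455% of all genes; 9 members and 2031 of 12755 genes with an unadjusted p under 0.05). Against LPS, LPS+ET+KU gave no call by edgeR or DESeq2 (10.7% of all genes; 2 members and 4584 genes with an unadjusted p under 0.05). Without LPS+ET pool 16, 3 members were called in LPS+ET against LPS, Rpl31 (−0.60) and Rpl36a (−0.79) besides Rps27l.

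Rps20, the most counted member, stood at 24588, 19640, 24893 and 17140 CPM in LPS, 22980, 31595, 18588 and 14949 after etoposide and 36101, 24489, 28336 and 25029 in LPS+ET+KU, with overlapping groups. Over the 74 members the median log2 change was −0.16 in LPS+ET against LPS (0.03 over all genes) and 0.31 between LPS+ET+KU and LPS+ET, taken against the latter (0.04 over all genes). Equal weight for each fraction brought these to 0.00 and −0.06. A direction for the group therefore depends on the weighting of the fractions.

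Other mRNAs of the TOP class, such as elongation factors and Npm1, were taken from a list of 24 genes in the table. Their median position (19 genes) was 8.77 in LPS, 7.91 with etoposide and 7.94 with etoposide and the inhibitor. Pabpc4 fell in LPS+ET against LPS (−1.69 ± 0.33, adjusted p = 0.00874, limma), the 1 call of 19, where 1.03% of all genes were called. Of 19, 4 fell in LPS+ET+KU against LPS (1.74% of all genes were called), and these were Eef2, the translocation factor (−1.23 ± 0.22), Nap1l1 (−1.28 ± 0.23), Npm1 (−1.09 ± 0.21) and Eif3k (−0.98 ± 0.16). None rose.

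Of the mitochondrial ribosomal protein genes, whose mRNAs are not counted among TOP mRNAs, none of 69 was called for position in any comparison, and their median stood at 10.03, 9.98 and 9.95. Of 22 genes tested for association from a list drawn up for mTOR and TOP control, 4 were called in LPS+ET against LPS, beside 12.7% of all genes. Sesn2 (2.86 ± 0.31) and Ddit4 (1.76 ± 0.31), both known inhibitors of mTOR signalling, rose. Eif4e, the cap-binding factor (−0.85 ± 0.18), and Zfp593 (−0.72 ± 0.18) fell, the latter on the list but not known as an mTOR or TOP regulator. With the inhibitor 4 were called against LPS, beside 10.7% of all genes, of which Sesn2 (2.10 ± 0.30) and Ddit4 (1.74 ± 0.31) rose, and Eif4e (−0.95 ± 0.18) and Rptor, the defining subunit of mTORC1 (−1.03 ± 0.24), fell. None of the list was called in LPS+ET+KU against LPS+ET, nor for position in any comparison.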

How the data were processed

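Polysome fractions of mouse splenic B cells were sequenced from the 3′ end. The authors removed duplicates by barcode, trimmed A tracts, mapped to GRCm38 and deposited whole-number counts per gene at poly(A) sites; the submitters' processing notes name TopHat2 2.0.12, HTSeq and DESeq2 1.6.3. Of the columns, 79 matched 1 sample and 78 a treatment and fraction. Nothing in the labels used here ties samples of a treatment to separate animals beyond calling them replicates, so p-values measure the spread between these gradients. The members and lists were chosen with earlier results of these data known. Genes named one by one were those with a known role, the 3 lowest and 3 highest positions, the largest changes of position and the genes called; Rps15, Rps25, Rps14, Rpl31 and Rpl36a and the most counted genes were added after their values were seen.

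Counts were summed per gradient, or per class and gradient, and tested with edgeR 4.0.16 (filterByExpr, TMM, quasi-likelihood). Positions used CPM per fraction and limma 3.58.1 (trend). R 4.3.3 and Python 3.11.15 were used, and DESeq2 1.42.0 as an alternative. In counts simulated for LPS+ET against LPS, 97 of 100 genes changed 2-fold in all fractions were called for association. With the 2-fold change in heavy polysomes only, 26 of 100 were called for the heavy to light ratio and 12 of 100 for position. Changes of 4-fold gave 100, 99 and 66. Each library was simulated on its own, with no deviation shared by the fractions of a gradient or by a pool. The real gradients do deviate as wholes, so the recovery for association can be overstated. The genes were drawn from the well-counted rows of the table only, so recovery for genes with few counts is not given. The light to monosome ratio was not simulated. Gradients of 1 pool deviated together in level (r 0.306 to 0.799 in 12 of 12 pairs of gradients; 36 pairs from different pools gave −0.631 to 0.286); in position r was 0.00379 to 0.359. The pairing rests on the numbers in the column names that are here called pools, whose meaning the names do not give. Intervals cover counting error only, and precision follows the depth given in the results. The fraction 17 library was not part of any comparison. Some genes are not reported here.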

Additional observations from a re-analysis of the deposited data

Results flagged for a closer look

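In 4 of 126 groups of 4 gradients or libraries examined, 1 value stood far from the other 3, where chance gives about 5%. Rpl35a stood at position 8.36 in LPS pool 15, with the others at 7.14 to 7.34, and at 6.74 in LPS+ET+KU pool 15, with the others at 7.18 to 7.25. Rpl7l1 stood at 10.37 in LPS+ET pool 16 (others 10.87 to 10.97) and Rps20 at 6.76 in LPS pool 16 (others 6.88 to 6.90).

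The light to monosome ratio differed between LPS+ET and LPS, by a test of the difference itself (edgeR), for Rps20 (log2 change −1.21, adjusted p = 2.8e-04), Rpl22 (−0.99, adjusted p = 0.00231) and Rpl32 (−0.89, adjusted p = 0.00908). Rpl32 kept its call in only 3 of 12 fits with 1 gradient left out.

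A fraction 17 library of LPS, outside the range compared, held 777 counts, of which 38 were ribosomal protein tags. This is 4.89% (95% Wilson interval 3.58 to 6.64%, counting error only), against 3.35% in fraction 16 of the same pool.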

How the results depend on the processing

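The members lower towards the heavier class within each treatment stayed within 1.5 times under every alternative run (53 to 69 called in either direction with 1 gradient left out). Changes between treatments rest on few calls. With DESeq2 there were 6 calls for the light to monosome ratio in LPS+ET against LPS in place of 3, and 1 in place of 0 for both ratios and for association between LPS+ET+KU and LPS+ET. At an adjusted p under 0.05 there were 8 for that light to monosome ratio, 1 for the heavy to light ratio and 1 for association in LPS+ET+KU against LPS+ET, and 4 for position in each comparison with LPS. Equal weight per fraction gave 0 for the light to monosome ratio. With the pool as a replicate block there were 6 for that ratio, 1 for the heavy to light ratio in LPS+ET+KU against LPS+ET, 2 and 4 for position in LPS+ET and LPS+ET+KU against LPS and 1 for association in LPS+ET+KU against LPS+ET; no other count moved by over 1.5 times. TMM factors between fractions gave 1 and 5 calls for position, counts as deposited gave 12 in LPS+ET+KU against LPS, and leaving out fractions 8 and 9, chosen after seeing the data, gave 3. The cause was not tested.

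With 1 gradient left out, calls ran from 1 to 4 for the light to monosome ratio in LPS+ET against LPS, from 0 to 1 and from 1 to 3 for position in LPS+ET and LPS+ET+KU against LPS, and from 1 to 3 for association in LPS+ET against LPS. The median member position was 8.53 and 8.09 with counts as deposited in LPS and LPS+ET, and 7.03, 6.77 and 6.53 with TMM between fractions in the 3 treatments. For the genes called, or near a call, between classes or treatments (11 genes), no value changed direction under the alternatives run, of which 363 kept their side of the threshold, 36 crossed it to be called and 30 lost the call. Depth limits fraction 4, the shallow heavy fractions of LPS+ET pool 16 and the 21 members with under 100 counts per gradient most.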
